A study of Rattus norvegicus with 4 samples.

Results

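The transcripts described here are called predicted by the prefix of their accession. They are RefSeq models computed from the rat genome (XM_, XR_) or Ensembl transcripts (ENSRNOT). Whether each had been curated when the array was designed is not given. The signal of each was lower by at least 1 on the log2 scale after cells received a synthetic copy (mimic) of miR-125a-3p, a microRNA. The members were chosen by these measured signals. A probe was taken when its accession began with XM_, XR_ or ENSRNOT, when it was well above background on both control arrays, when its mean log2 signal was lower by at least 1 on the miR-125a-3p arrays, and when both miR-125a-3p values lay below both control values. Of 45598 non-control probes on the array, 21911 were for predicted transcripts, 9970 of these were well above background on both control arrays, 87 were lower by at least 1, and 80 met the whole rule. The 80 probes stood for 79 accessions, since XM_008759825 had 2 probes. Because the change between the groups chose the members, that change is given below as a description with no test.

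The 4 samples were cultures of oligodendrocyte precursor cells (OPCs), which divide and later mature into the myelin-forming cells of the brain, taken from the cortex of rats at postnatal day 2 and grown for 3 days with bFGF and PDGF. The sample notes give 2 days in vitro for all 4. In the miR-125a-3p group (2 samples) the cells were transfected with the mimic at 50 nM. In the miR-neg group (2 samples) they were transfected with a negative control RNA, also at 50 nM, with Lipofectamine RNAiMax in both groups. Total RNA was taken 48 h later and measured on 1 single-colour Agilent array per sample, all on 1 slide. The labels state no strain, sex or number of animals, and they call the cells oligodendrocytes. The submitters describe each condition's samples as independent but name no separate cultures or animals, so the spread given here is that between these samples and may be technical.

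A microRNA is loaded into an Argonaute protein and pairs with messenger RNAs mainly through its seed, the bases from position 2 to 8, and pairing usually lowers the transcript or its translation. A transcript can also be lower after a mimic because of the changes that follow from other transcripts. The hairpin precursor yields a molecule from each of its arms. Both mature rat sequences are shown because the transfected mimic carries the 3p arm only, with its seed in capitals (RefSeq, GRCr8, plus strand, chr1:67350727-67350748 for 3p and chr1:67350689-67350712 for 5p).
rno-miR-125a-3p: aCAGGUGAgguucuugggagcc
rno-miR-125a-5p: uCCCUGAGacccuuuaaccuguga
The 3p seed is carried by 1 of the 724 mature rat microRNAs in the table, miR-125a-3p itself. Probe and transcript sequences were not used here, so whether the members hold matches to this seed was not analysed.

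XM_ accessions are RefSeq's predicted coding transcripts, XR_ its predicted non-coding ones, and ENSRNOT accessions are Ensembl transcripts. The members were 33 XM_, 27 XR_ and 20 ENSRNOT probes. The share of probes meeting the rule was 0.791% of 4172 XM_ probes, 1.53% of 1765 XR_ probes and 0.496% of 4033 ENSRNOT probes that were well above background on both miR-neg arrays. Over all 9970 such predicted probes it was 0.802%, and over all 25443 probes of any kind it was 0.739%. The files name a probe by its accession alone. The RefSeq gene table gave a current symbol to 6 members, 4 protein-coding genes, among them St18, Abcb4 and Gjc3, and 2 long non-coding RNA genes, and the other 74 are called by their accession.

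The values below are log2 signals relative to each array's 75th percentile, a level that stood at 702 and 717 signal units on the miR-125a-3p arrays and 745 and 679 on the miR-neg arrays. The median member was lower by 1.30 after the mimic, and changes ran from -3.15 to -1.005. The 3 members nearest the threshold were XM_003753250 (-1.005), XR_344628 (-1.02) and XR_600083 (-1.02), and the 3 nearest predicted probes outside it were XM_008768200 (-0.99), ENSRNOT00000074760 (-0.99) and ENSRNOT00000018956 (-0.98). The members were dim. Their median miR-neg level was -3.95, against -1.49 over all 9970 predicted probes, and 38 of 80 (47.5%) lay under -4, against 17.5% of the 9970. The rule took 2.18% of predicted probes under -4 and 0.225% of those at 0 and over. The class shares above were not matched for level. The median miR-neg level was -4.445 for XR_ members, -2.53 for XM_ members and -3.84 for ENSRNOT members.

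**Figure D1:**
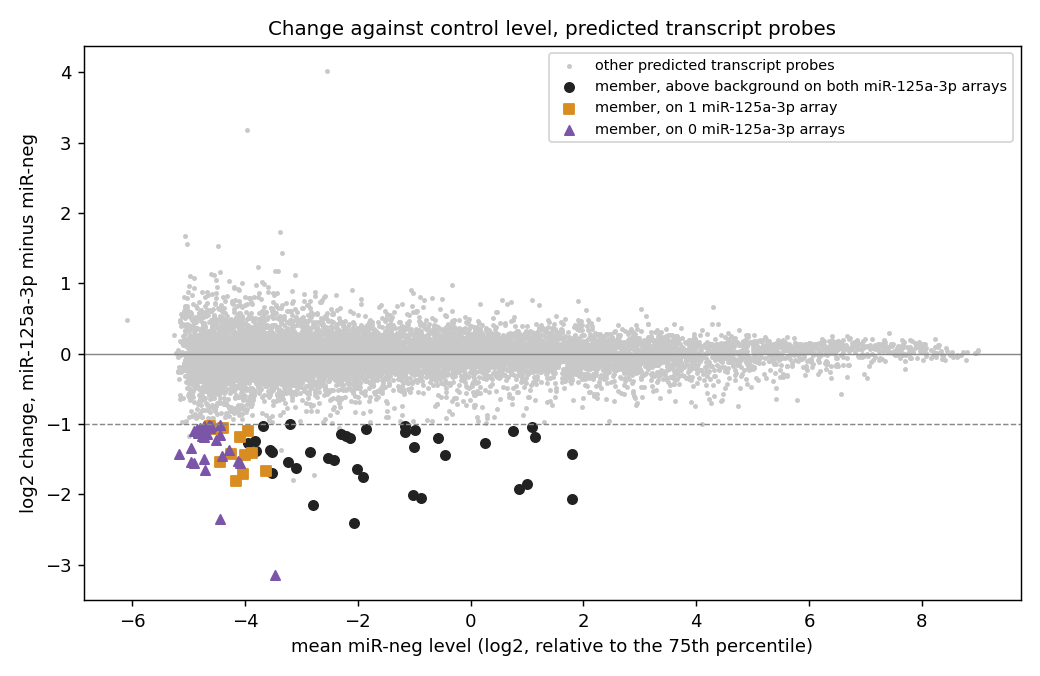
Each point is a probe for a predicted transcript that was well above background on both miR-neg arrays, with its mean miR-neg level on the x axis (log2, relative to the 75th percentile) and its log2 change on the y axis (miR-125a-3p minus miR-neg). The 80 members lie below the dashed line at -1 by their choice, and the 29 members on 0 miR-125a-3p arrays well above background all sit at the dim end, with mean miR-neg levels between -5.17 and -3.48.

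After the mimic, 37 members were still well above background on both miR-125a-3p arrays, 14 on 1 array and 29 on 0. The first set had a median signal of 67.8 units in miR-125a-3p and 190 in miR-neg, and the last set 12.5 and 27.4 units. Limma's moderated test across 27250 probes, with Benjamini-Hochberg adjustment, called 19 of the 80 members and 0.286% of all probes lower at an adjusted p of 0.05. All 19 came from the 37 members that stayed above background. Since the rule used the same contrast, nothing is read from these counts. Limma called 0 of all probes when any 1 of the 4 arrays was left out, with 3110 to 4856 probes at an unadjusted p under 0.05. It also called 0 with the replicate number, which is also the position along 1 slide axis, as a block (smallest adjusted p = 0.0631, 4609 probes at an unadjusted p under 0.05).

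Among the members with a known gene, St18 encodes a zinc finger transcription factor of the myelin transcription factor family. Its predicted-transcript probe, XM_008763490, had 204 and 176 signal units in miR-125a-3p and 525 and 509 units in miR-neg. On the log2 scale it averaged -1.90 ± 0.17 in miR-125a-3p and -0.46 ± 0.06 in miR-neg (SD, n = 2 each), a change of -1.44. The gap between the groups was 1.28, where the rule asked only that they not overlap. A probe for the curated St18 transcript NM_153310 gave 112 and 98.5 units in miR-125a-3p and 230 and 270 units in miR-neg, a change of -1.24 with no overlap of the groups. Both St18 probes thus moved the same way in the same samples.

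Abcb4 encodes a transporter that moves phosphatidylcholine across membranes, best known from the bile canaliculus of the liver. Its member probe, XM_008762697, had 144 and 137 units in miR-125a-3p and 380 and 329 units in miR-neg. It averaged -2.34 ± 0.07 in miR-125a-3p and -1.01 ± 0.05 in miR-neg (SD, n = 2 each), a change of -1.33. The gap between the groups was 1.24, far wider than the spread within either. The curated Abcb4 probe, NM_012690, had 58.0 and 69.9 units in miR-125a-3p and 139 and 119 units in miR-neg, a change of -1.01. It was a dimmer probe with a smaller change in the same direction.

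Gjc3 encodes connexin 29, a gap junction family protein of oligodendrocytes and Schwann cells. Its only named probe on the array, XM_221997, had 158 and 151 units in miR-125a-3p and 368 and 274 units in miR-neg. It averaged -2.20 ± 0.07 in miR-125a-3p and -1.16 ± 0.20 in miR-neg (SD, n = 2 each), a change of -1.03, just inside the threshold. The miR-neg arrays differed by 0.29, and the gap between the groups was 0.84.

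The start-site regions of Gjc3 and Abcb4 are shown as the promoters of named members that the RefSeq table holds, 250 bases before to 50 after the annotated start (GRCr8, minus strand, chr12:22024518-22024817 and chr4:26164096-26164395). Matches to CAGCTG, an E-box form, and ACAAAG, a form of the SOX family motif, were searched on both strands and are in capitals. The 2 motifs do not overlap in these windows.
Gjc3: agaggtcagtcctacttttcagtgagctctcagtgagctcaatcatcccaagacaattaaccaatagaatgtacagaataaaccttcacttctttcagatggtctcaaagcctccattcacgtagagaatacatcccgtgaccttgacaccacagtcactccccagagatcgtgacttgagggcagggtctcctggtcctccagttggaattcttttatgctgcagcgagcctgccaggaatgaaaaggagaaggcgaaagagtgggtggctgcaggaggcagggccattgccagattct
Abcb4: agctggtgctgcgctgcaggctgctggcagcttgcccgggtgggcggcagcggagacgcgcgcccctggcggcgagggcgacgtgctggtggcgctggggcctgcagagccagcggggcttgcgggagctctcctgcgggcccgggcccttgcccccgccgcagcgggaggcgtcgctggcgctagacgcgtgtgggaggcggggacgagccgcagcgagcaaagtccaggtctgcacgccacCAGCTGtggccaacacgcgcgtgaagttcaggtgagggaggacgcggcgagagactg
Abcb4 held 1 CAGCTG, a motif that 15.1% of the 33469 promoters in the table hold. Neither window held ACAAAG, which 18.8% of promoters hold. These letters describe the windows only, and the start used by the predicted transcripts was not measured.

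The non-coding members with a symbol were LOC102553541 and LOC102547697, for which no function is given here. LOC102553541, probed as XR_350825, had 16.9 and 21.6 units in miR-125a-3p and 122 and 31.8 units in miR-neg. Its change of -1.70 therefore rests mainly on miR-neg replicate 1. LOC102547697, probed as XR_592335, had 12.8 and 15.9 units in miR-125a-3p, not well above background on either array, and 30.4 and 28.2 units in miR-neg. It was 2.05-fold lower by the estimate for dim members explained below, with little spread in the controls.

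Of the 12 largest decreases among members well above background on all 4 arrays, 8 had arrays of each group within 0.5 of each other. ENSRNOT00000037655 had 32.2 and 31.2 units in miR-125a-3p and 175 and 163 units in miR-neg, a change of -2.41. XM_008766194 had 601 and 582 units in miR-125a-3p and 2718 and 2249 units in miR-neg, a change of -2.06. XM_008763636 had 97.8 and 90.3 units in miR-125a-3p and 455 and 333 units in miR-neg, a change of -2.05. In each of these the mimic arrays nearly coincided and the controls stood far above them. XM_006250012 had 408 and 380 units in miR-125a-3p and 1515 and 1344 units in miR-neg, a change of -1.85. XM_008767220 had 54.1 and 57.3 units in miR-125a-3p and 210 and 170 units in miR-neg, a change of -1.76. ENSRNOT00000004349 had 28.3 and 25.4 units in miR-125a-3p and 88.2 and 78.0 units in miR-neg, a change of -1.62. These 3 also had a spread far below the change.

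XM_008759825 was the only accession with 2 probes among the members. Its brighter probe had 329 and 351 units in miR-125a-3p and 1459 and 1151 units in miR-neg, a change of -1.93. Its dimmer probe had 87.9 and 86.6 units in miR-125a-3p and 418 and 296 units in miR-neg, a change of -2.01. The 2 probes differed in brightness but gave nearly the same change, and on both the higher control was miR-neg replicate 1. In all, 26 members were well above background on all 4 arrays with arrays of each group within 0.5, 17 XM_, 7 ENSRNOT and 2 XR_ probes. The 15 of them that had no symbol and were outside the 12 largest changed by -1.51 to -1.03. All 19 members called by limma were among these 26, which follows largely from the choice, since limma divides by the within-group spread.

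**Figure D2:**
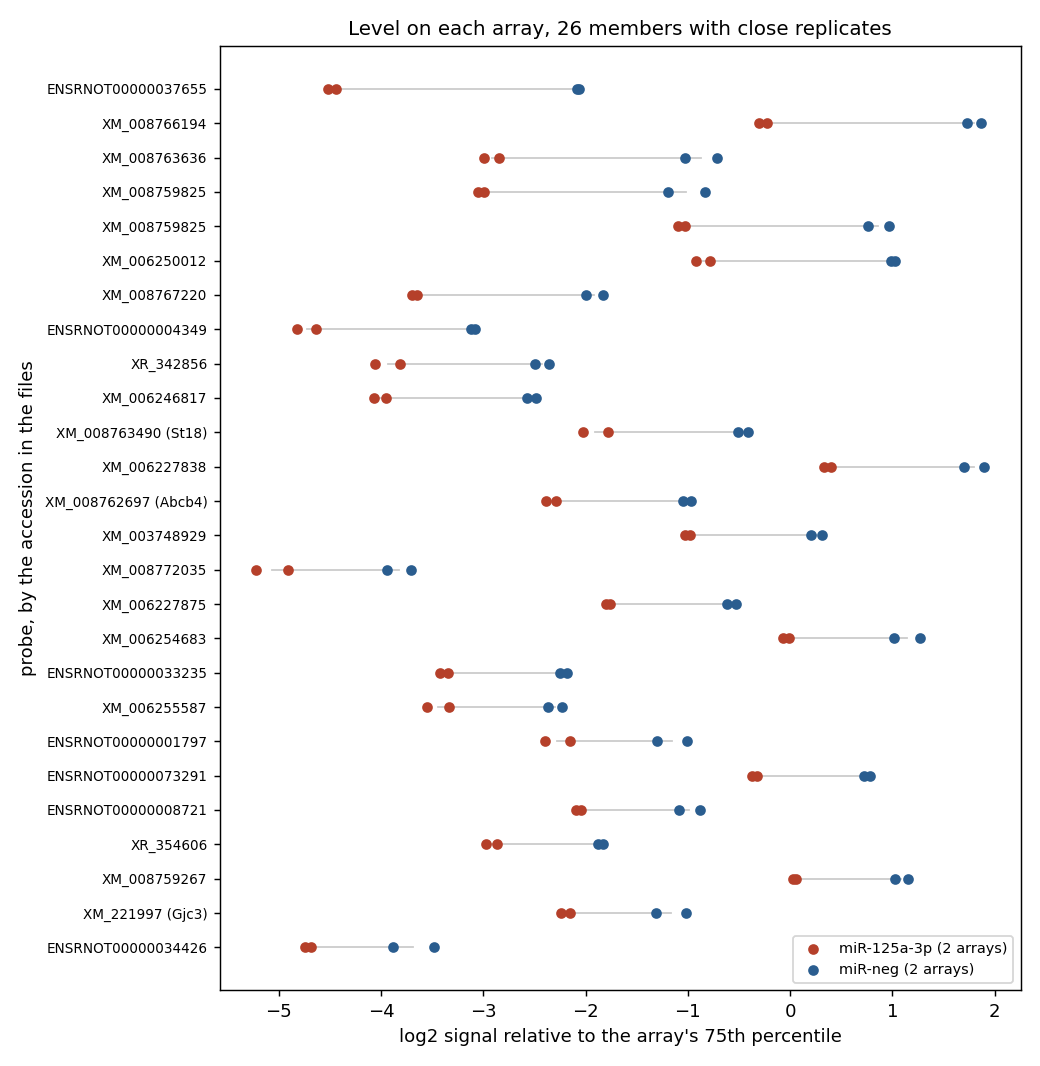
Each row is 1 of the 26 members that were well above background on all 4 arrays with the arrays of each group within 0.5, and the x axis is the log2 signal relative to the array's 75th percentile. Red points are the 2 miR-125a-3p arrays and blue points the 2 miR-neg arrays, grey lines join the group means, and the rows run from the largest decrease (-2.41) at the top to the smallest (-1.03) at the bottom.

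The other 4 of the 12 largest decreases had wider spread. ENSRNOT00000074608 had 18.9 and 27.8 units in miR-125a-3p and 99.1 and 105 units in miR-neg, a change of -2.15, with its spread on the mimic side. XM_008757881 had 65.0 and 49.7 units in miR-125a-3p and 469 and 66.7 units in miR-neg, a change of -1.63. ENSRNOT00000073298 had 26.5 and 25.4 units in miR-125a-3p and 194 and 29.4 units in miR-neg, a change of -1.54. In both of these miR-neg replicate 1 alone stood apart and miR-neg replicate 2 lay close to the mimic arrays. In LOC102553541, also among the 4, miR-neg replicate 1 stood apart too. Its miR-neg replicate 2 was 0.64 above the nearer mimic array. A second ENSRNOT00000073298 probe showed the opposite control array standing apart, with 3.23 and 3.78 units in miR-125a-3p, 4.44 units in miR-neg replicate 1 and 224 units in miR-neg replicate 2, the only array on which it was well above background.

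The spread between control arrays set many members apart from the rest of the predicted probes. The miR-neg arrays differed by more than 1 for 16 of 80 members (20.0%), against 0.722% of all 9970 predicted probes, a difference that the choice of members favours, since a single high control array raises the control mean. In 10 members miR-neg replicate 1 was the higher one and in 6 miR-neg replicate 2. The same lean was present over the 9970 probes, where 52 were higher by more than 1 on replicate 1 and 20 on replicate 2. Of the 10 members, 6 were XR_ probes, and 9 had a within-group difference larger than their decrease. Over all members this held for 16. The groups were less than 0.1 apart in 3 members. One of them, XR_598343, had 19.9 and 16.8 units in miR-125a-3p and 89.0 and 19.7 units in miR-neg, so that 1 mimic signal exceeded 1 control signal before scaling. The miR-125a-3p arrays differed by more than 1 for 12 members (15.0%), against 1.03% of the 9970. All members had a single spot on the array.

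**Figure D3:**
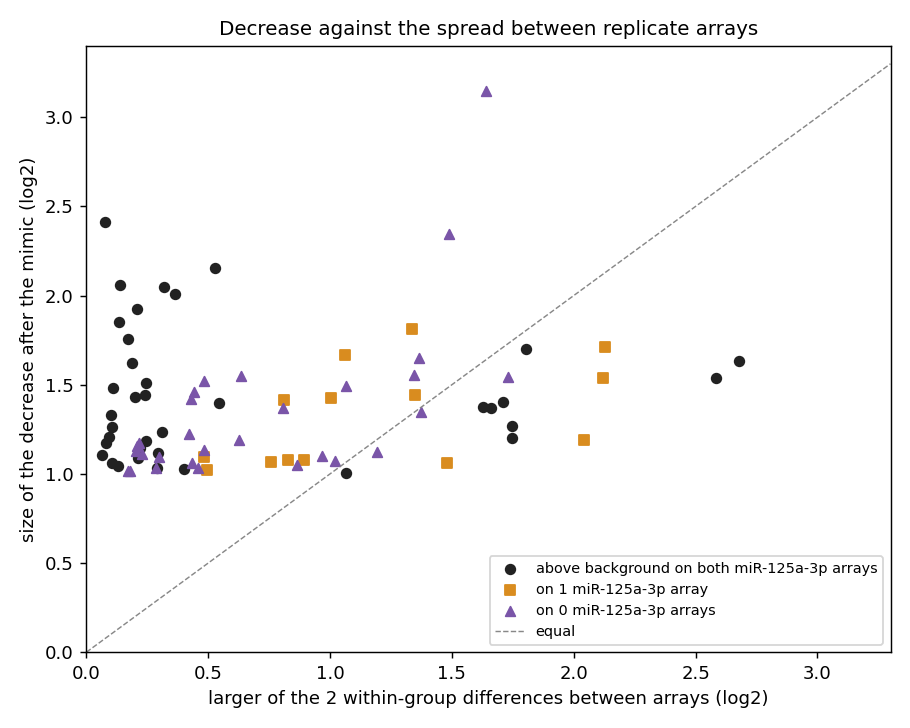
Each point is 1 of the 80 members, with the larger of its 2 within-group differences between arrays on the x axis and the size of its decrease on the y axis (both log2). The 16 points right of the dashed line have a within-group difference larger than the decrease, and black circles, orange squares and purple triangles are members well above background on both, 1 and 0 miR-125a-3p arrays.

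For the 29 members well above background on 0 miR-125a-3p arrays, the size of the decrease is uncertain, and an estimate is given. Per mimic array, it takes the higher of the probe's signal and that of the dimmest probe counted as well above background. The mean of these is set against the miR-neg mean. Brighter probes could also fail to count. XR_600083 failed at -5.37 and -5.55 on the miR-125a-3p arrays, where the dimmest probes that passed stood at -6.52 and -6.19. The estimate is therefore no strict lower bound, and it equals the plain change in 18 of the 29. XM_008763199 had 12.6 and 4.12 units in miR-125a-3p and 64.5 and 63.4 units in miR-neg, and was 5.74-fold lower by the estimate. Its controls agreed closely, and it had the largest plain change of all members (-3.15). XR_598223 had 4.06 and 10.1 units in miR-125a-3p and 20.4 and 52.2 units in miR-neg. It was 3.70-fold lower by the estimate, with wide spread in both groups. By the same estimate XM_008766822 was 2.93-fold lower, XM_008767283 2.87-fold, XR_597485 2.75-fold and ENSRNOT00000071009 2.60-fold. The estimates of the other 23 ran from 1.92-fold to 2.58-fold. Their miR-neg signals were themselves dim, and over all 29 members they lay between 16.3 and 64.5 units.

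Besides the XM_008759825 pair, which the rule chose together, the array held other probes of the same accession or gene for 12 members, 15 probes in all. Of these, 9 were well above background on both miR-neg arrays. All 9 lay below 0, and 2 were lower by at least 1, the curated St18 and Abcb4 probes. ENSRNOT00000008721 also came close, with -1.09 at its member probe and -0.98 at its dimmer second probe. Other pairs differed in size. ENSRNOT00000027704 changed by -1.20 at its member probe, where miR-neg replicate 2 stood apart, and by -0.17 at a second probe well above background on all 4 arrays. ENSRNOT00000046359 changed by -1.08 at its member probe and by -0.55, -0.54 and -0.22 at 3 others that were well above background on all 4 arrays. ENSRNOT00000008601 changed by -1.10 at its member probe and by -0.28 at another. The other 6 probes were not well above background on both miR-neg arrays, and 1 of them, for ENSRNOT00000032257, lay above 0 (1.44) on signals of 11.1 and 14.6 units in miR-125a-3p and 5.32 and 4.17 units in miR-neg. The probes share samples and contrast, so they show how far probes of a transcript agree and are no separate test.

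The decreases were smaller when the values were rebuilt from the median spot signals by normexp with an offset of 50 units, a setting that changes the input signal, the background method and the offset together. It left all 80 members below 0, but their median change became -0.40 and 15 stayed lower by at least 1. The median became -0.81 for the 37 members that stayed above background, -0.36 for the 14 above background on 1 mimic array and -0.27 for the 29 above it on none. By construction the offset shrinks changes of signals that are small beside it. The direction was set by the rule on the same arrays, so its keeping is no separate support. The size held mainly for bright members. XM_008766194 changed by -1.85, the XM_008759825 probes by -1.71 and -1.44, XM_006250012 by -1.67, St18 by -1.13 and Abcb4 by -1.05. Gjc3 changed by -0.81. With normexp, 0.16% of the 9970 predicted probes met the rule.

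**Figure D4:**
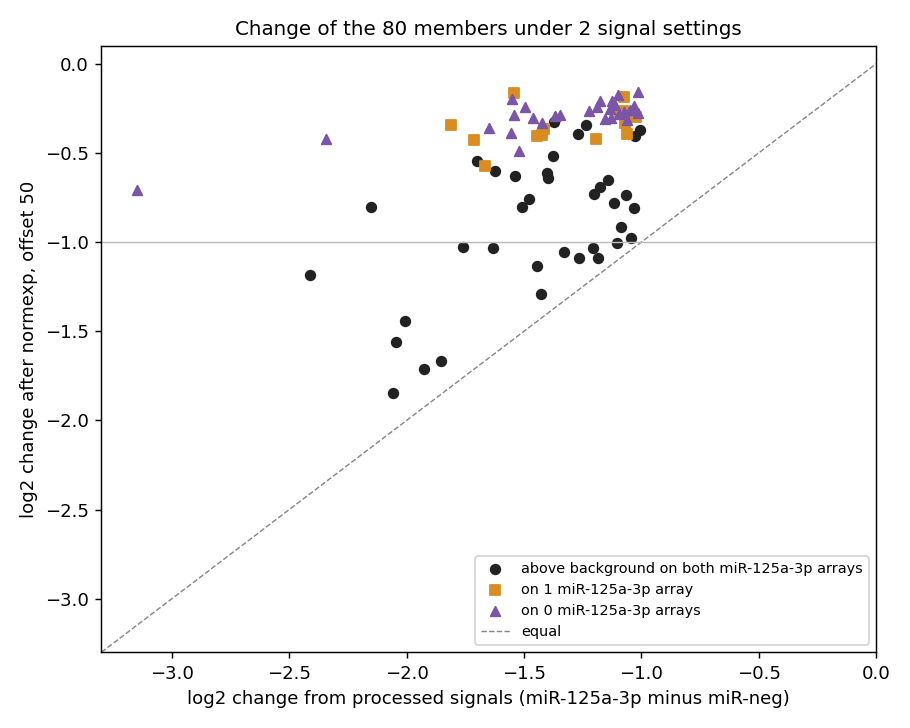
Each point is 1 of the 80 members, with its log2 change from the processed signals on the x axis and its log2 change after normexp with an offset of 50 on the y axis (both miR-125a-3p minus miR-neg). The 15 members below the grey line at -1 are all well above background on both miR-125a-3p arrays, and the purple triangles and orange squares lie between -0.71 and -0.16.

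Curated transcripts, with accessions NM_ and NR_, were set beside the predicted ones under the same rule. Of the predicted probes 0.802% (80) were lower by at least 1 and 0.181% (18) higher, against 0.698% (98) lower and 0.62% (87) higher of the 14041 curated ones. Under this rule decreases outnumbered increases in the predicted set, while the curated set was nearly even. The rule requires signal on the miR-neg arrays, which shuts out probes that rise from background. With the requirement moved to the miR-125a-3p arrays, 0.989% (102) of 10318 predicted and 1.12% (161) of 14346 curated probes were higher by at least 1. Both shares exceed the lower shares of 0.802% and 0.698% found under the first requirement. The part of the requirement in the lean was not tested. The counts by level that follow again require signal on the miR-neg arrays. At miR-neg levels of -2 to 0, 10 predicted probes were lower and 0 higher, against 24 lower and 13 higher among curated probes. At 0 and over, 8 predicted probes were lower and 0 higher, against 25 and 5 among curated ones. The median change over the 9970 predicted probes was 0.00, and over the curated ones 0.01.

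**Figure D5:**
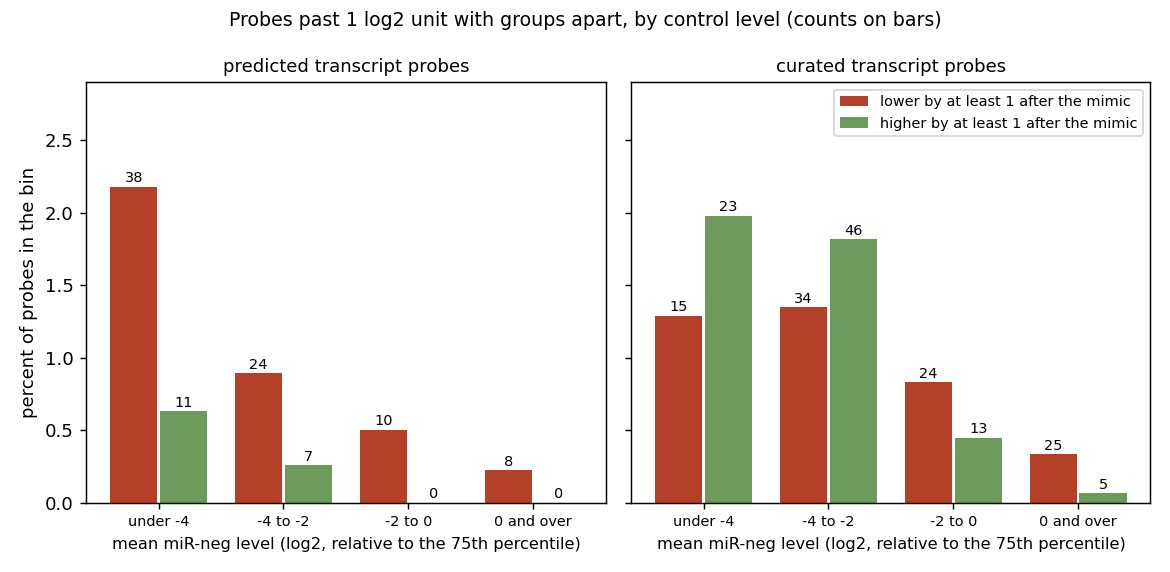
Bars give the percent of probes in each bin of mean miR-neg level that were lower (red) or higher (green) by at least 1 after the mimic with the groups apart, for predicted transcripts on the left and curated ones on the right, and the numbers on the bars are counts. Among predicted probes the lower share is above the higher share in all 4 bins, while among curated probes it is above it only in the 2 bins from -2 upward. All probes had to be well above background on both miR-neg arrays, which shuts out probes that rise from background.

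Cell type markers were set beside these changes because the cultures can hold other cells, and in bulk RNA fewer cells of a type cannot be told apart from less RNA per cell. The marker lists were chosen with earlier results of these data known, so the calls in them are a description and no separate support. Among 26 genes of myelin or of mature oligodendrocytes that were tested, 22 had a change below 0 (median -0.48, against 0.01 over all 27250 probes), and Adamts4, Aspa and Gpr37 fell by 1.49, 1.55 and 1.01 (limma adjusted p = 0.0365, 0.0387 and 0.0496, n = 2 per group). Gjc3, the list's only member here, did not pass (adjusted p = 0.0688). The list's summed linear level was 756 to 777 in miR-125a-3p and 1085 to 1112 in miR-neg, and Mal and Ermn were not well above background on any array. Such sums weigh bright genes most. Mbp, the brightest of this list, changed by -0.64 (limma adjusted p = 0.0728). All 16 OPC identity genes named on the array were detected, and 0 of them passed. Of 11 committed precursor genes 8 lay below 0, and Cnksr3 fell by 1.42 (adjusted p = 0.0365).

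Astrocyte markers lay above 0 in 14 of 17, with summed levels of 254 to 256 in miR-125a-3p and 225 to 239 in miR-neg, and Aldh1l1 rose by 1.89 (adjusted p = 0.0315). Most of this sum came from Aldoc, the brightest of them, which changed by 0.10 (limma adjusted p = 0.561). Gjb6 was not well above background on any array. Microglia and macrophage markers lay above 0 in 10 of 14, with sums of 4.94 to 5.52 in miR-125a-3p and 4.32 to 4.89 in miR-neg. C1qa rose by 1.44 (adjusted p = 0.0365), and Ptprc was not well above background on any array. Endothelial, pericyte and fibroblast markers lay above 0 in 7 of 9, with sums of 1.39 to 1.55 in miR-125a-3p and 0.982 to 1.04 in miR-neg. Tagln rose by 1.21 (adjusted p = 0.0365), and Pecam1, Dcn and Lum were not well above background. Neuron markers had a median change of 0.08 and Schwann cell markers 0.00, with 0 of 13 and 1 of 8 called. The called Schwann cell gene was Pmp2, which fell by 1.79 (adjusted p = 0.0365). Of 10 skeletal muscle genes Myh8 alone passed, and fell by 2.73 (adjusted p = 0.0315). Of 5 listed proposed targets of miR-125a-3p, 4 were tested and 0 passed. Of these 4, 3 lay above 0 and 1 below (median change 0.24). None of the marker calls held in limma with the replicate block or with an array left out. The part of these markers in the members' changes was not tested.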

How the data were processed

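Total RNA of 4 samples, 2 per group, was labelled with Cy3 (100 ng each) and read on single-colour arrays. Per the file headers, the authors' intensities are processed signals, background-subtracted and detrended by Agilent Feature Extraction, whose version the submitters' notes give as 10.7.3.1. The deposited log2 table differs from the log2 of these intensities by a single constant on each array, within 0.01, for 100% of probes. Flags for signal well above background, outliers and saturation (0 saturated spots) are per the file headers. The header names the rn4 build, while accessions were named through GRCr8, so no probe coordinates are given.

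Control and outlier spots were left out (40 predicted probes lost), spots of a probe were averaged as log2, and levels were set relative to the 75th percentile of the array. Limma 3.58.1 in R 4.3.3 (lmFit, eBayes, two-sided) was fitted on 27250 probes that passed the background flag on 2 or more arrays, and was checked on simulated data. Its 2 residual degrees of freedom limit the precision. An exact permutation test of 2 against 2 cannot go below 0.333. Probe sequences were not used, and the files have no gMeanSignal column, so normexp used median spot signals. Named members were the 12 largest decreases above background on all arrays and the 6 largest estimates among dim ones. Those with a symbol, list members and those at the threshold were also named. The values of 1 member with a symbol are not reported here. The members and lists were chosen with earlier results of these data known.

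The groups share replicate numbers. Deviations of same-numbered arrays correlated at 0.0539 over probes, a value that 2 pairs cannot settle, so the fit has no block. Array position on 1 slide axis follows the group and cannot be told apart from it.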

Additional observations from a re-analysis of the deposited data

How the results depend on the processing

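The count of 80 members became 85 with quantile normalization, 82 with median centring and 80 with the deposited table, each holding all 80. It became 37 with signal well above background on all 4 arrays, 441 with no filter on dim probes, 24 at a decrease of at least 1.5 and 150 at 0.8. It was 16 with normexp, which shared 15 members. Normexp on median signals, and a limit of 1 on the difference between replicates, which kept 54 members, were chosen after seeing the data. Leaving out 1 array gave 89 to 361 probes. Without miR-neg replicate 1 there were 285, of which 59 were members, and without miR-neg replicate 2 there were 361, with 70 members. Single arrays separate more easily by construction.

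Limma called 168 of 27250 probes (0.617%), 19 of them members. Of the same 27250 probes it called 287 with median centring (33 members) and 1753 with normexp (35). A variance trend gave 2169 (34), and an adjusted p of 0.1 gave 1024 (44). Among probes above background on all 4 arrays it called 596 of 25033, with 28 of the 37 members that could enter. Since the rule used the same contrast, nothing is read from the member counts. Without a filter on dim probes limma called 0 of 45533 probes, with 4565 at an unadjusted p under 0.05. With the replicate number as a block, which is also the slide axis that the numbers share, limma called 0 probes, with 4609 at an unadjusted p under 0.05. Leaving out 1 array gave 0 to 0 calls in limma, with 3110 to 4856 such probes, a lone array being assumed to vary like the other group. The cause was not tested. Single changes were followed for 29 members, those with a symbol and those above background on all 4 arrays with arrays of each group within 0.5. All 116 of their values under 4 other scalings or signals lay between -2.42 and -0.21. The other members, some of them named above for dim signal or wide spread, were not followed. With an array left out, the rule itself fixes the sign, and the other settings use the same arrays on which it chose. Seed matches were not run, since no transcript or probe sequences were used.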
